A study of Mus musculus with 35 samples.

Results

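Transcripts of 10 genes of the bone morphogenetic protein (BMP) system were followed in mouse amygdala: the ligands Bmp2, Bmp3, Bmp4, Bmp5, Bmp6 and Bmp7 and the antagonists Nog, Chrd, Grem1 and Bmper. They were taken by symbol from the 52636 genes in the count files, and each of the 10 was found once and had counts. Cells of the basolateral amygdala were collected by laser capture from an anterior and a posterior portion in female mice. The mice were C57BL/6J, an inbred strain, or B6D2F1N, a hybrid strain, and lived in standard cages or in enriched housing, which added a playground for 1 h per day from postnatal day 77. All mice, controls included, were kept on restricted food and trained on a touchscreen from postnatal day 70. They were then tested for cognitive judgement bias, and brains were taken after the last test. Training length varied between mice, so that their ages at sampling varied too.

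A total of 35 RNA-seq libraries from 19 mice were analysed. Of these, 16 were anterior and 19 posterior. Standard C57BL/6J mice gave 4 anterior and 4 posterior libraries, enriched C57BL/6J mice 2 and 4, standard B6D2F1N mice 5 and 5, and enriched B6D2F1N mice 5 and 6. Both portions were present for 16 mice, 6 of C57BL/6J and 10 of B6D2F1N. Mice are numbered here within strain and housing, and a mouse keeps its number in both portions. Reads on genes numbered 16938534 to 27352623 per library, with a median of 21409708. The methods of the study give the section ranges of the 2 portions in an order opposite to the usual anatomical one. The labels were used as deposited, and if they were exchanged every portion difference below would change its sign.

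Some libraries stood apart or went against a label. Both libraries of B6D2F1N standard mouse 1 held no count of Xist, the transcript of the inactive X chromosome, although the mouse is labelled female. Choroid plexus markers, whose sum was 6.62 to 940 CPM (read counts scaled to a common library size) in anterior libraries, reached 118 to 14380 CPM in posterior ones, with the highest sums in B6D2F1N enriched mice 1 and 3. The markers of the basolateral amygdala (Slc17a7, Tbr1, Rspo2 and Lmo3) were detected in both portions. Their sum was 299 to 1367 CPM in anterior and 169 to 626 CPM in posterior libraries, with the lowest anterior sums in B6D2F1N standard mouse 3 and enriched mouse 1. The portion differences of Bmp3 and Bmp2 in B6D2F1N are given with and without these mice. In the strain, housing and strain by housing fits, neither gene was called with all mice or with any 1 of these mice left out.

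BMP ligands are secreted dimers of the transforming growth factor beta superfamily. They bind pairs of type I and type II receptor kinases, which phosphorylate Smad proteins and raise targets such as the Id genes. Bmp3 is an atypical member that is known to oppose the signaling of other ligands through the activin type II receptors. Noggin, chordin and gremlin trap ligands outside the cell, and Bmper is a secreted binding protein that can dampen or promote their action. In the brain the system is known for dorsoventral patterning, astrocyte formation and the control of adult neural stem cells.

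Bmp3 (ENSMUSG00000029335, chr5:98854415-98884396 of GRCm38, plus strand) differed most between portions and was lower in the posterior portion in each of the 16 mice. In standard C57BL/6J mice 1 to 4, anterior libraries held 629, 1054, 687 and 927 CPM. The posterior libraries of these mice held 51.8, 121, 89.8 and 168 CPM. In enriched C57BL/6J mice, anterior values were 411 CPM in mouse 1 and 767 CPM in mouse 3, and posterior values were 54.1, 37.5, 108 and 43.3 CPM in mice 1 to 4. All C57BL/6J anterior libraries thus lay above all posterior ones.

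Bmp3 in standard B6D2F1N mice 1 to 5 was at 845, 1151, 179, 1103 and 540 CPM in anterior libraries and at 99.9, 45.2, 35.9, 119 and 176 CPM in posterior libraries. Enriched B6D2F1N mice 1, 2, 3, 4 and 6 held 178, 754, 320, 1369 and 564 CPM in the anterior portion. Their posterior libraries, with that of mouse 5, ranged from 27.6 to 96.0 CPM with a median of 58.2 CPM. The lowest anterior values (178 and 179 CPM) stood just above the highest posterior value (176 CPM), so that the ranges did not overlap in this strain either.

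The mean of Bmp3 fell from 746 ± 227 CPM (SD, n = 6) to 98.9 ± 44.0 CPM in C57BL/6J mice with both portions, and from 700 ± 418 CPM (SD, n = 10) to 73.7 ± 47.2 CPM in B6D2F1N mice. The log2 fold change, posterior over anterior, was -2.98 (SE 0.17) in C57BL/6J and -3.19 (SE 0.23) in B6D2F1N. These are 7.87-fold and 9.14-fold lower levels. Adjusted p-values of edgeR's quasi-likelihood F test with the mouse as a block were 9.4e-09 and 1.5e-06. By p-value Bmp3 ranked 4 among 25751 genes tested in C57BL/6J and 1 among 27761 in B6D2F1N. Within a mouse, the anterior level was 3.07-fold (B6D2F1N standard mouse 5) to 25.5-fold (B6D2F1N standard mouse 2) the posterior level, with a median of 8.58-fold over the 16 mice.

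Bmp3 and Bmp2 were the members past the threshold of an adjusted p of 0.05 in this comparison, 2 of 10 in each strain, and both were lower in the posterior portion. Of all genes tested, 3.64% passed in C57BL/6J and 4.0% in B6D2F1N. Those lower in the posterior portion made up 2.1% and 2.37% of all genes tested, and those higher 1.54% and 1.62%. The plot of the 10 members by library shows the paired values.

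**Figure D1:**
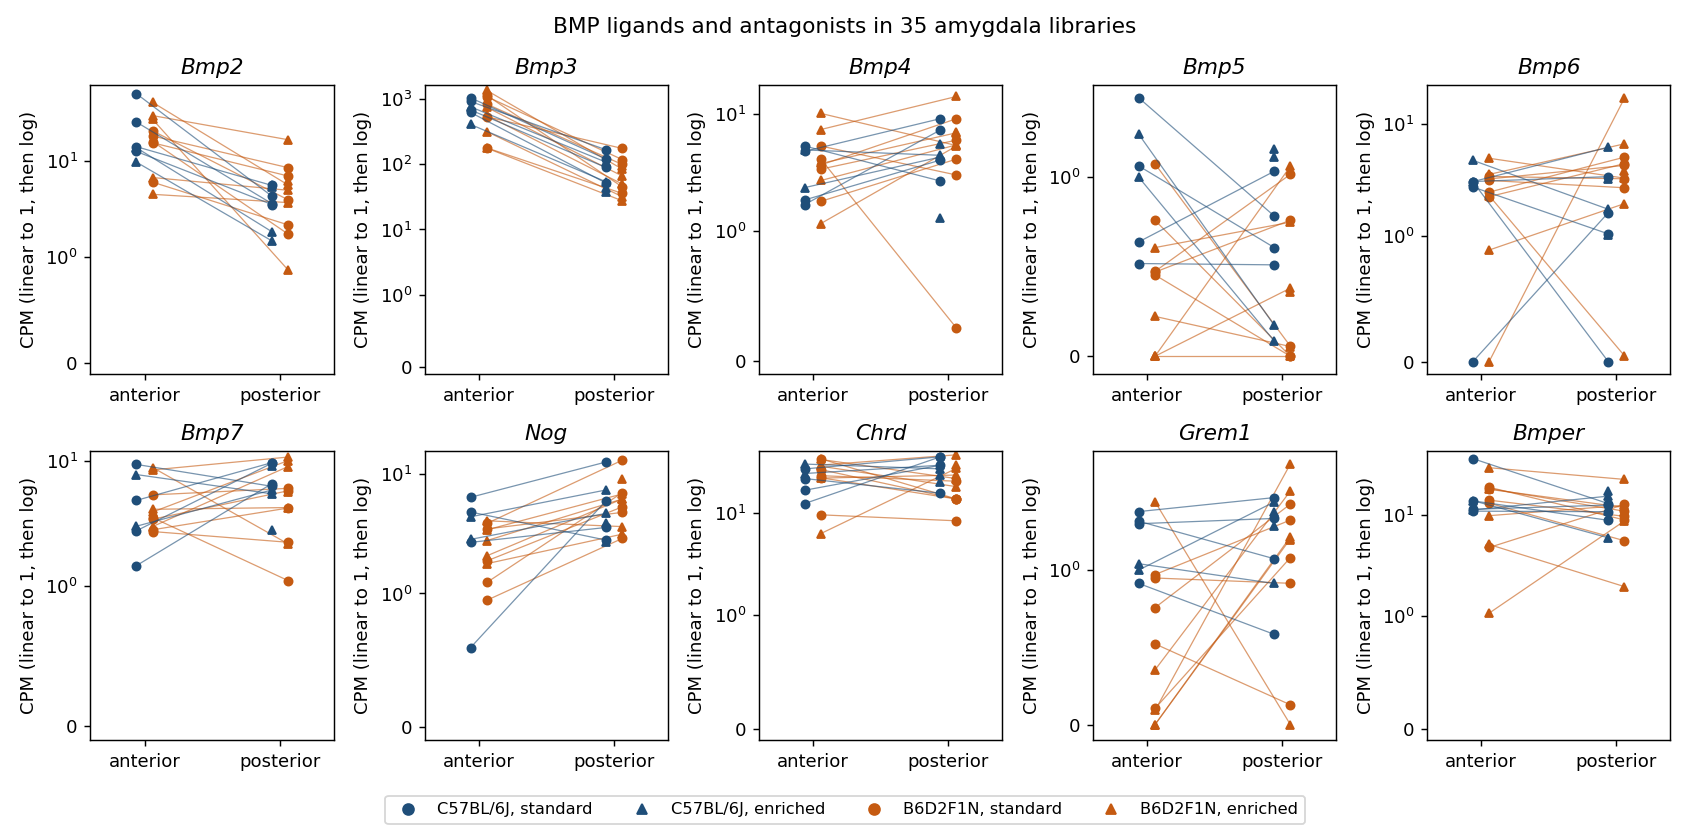
Each panel plots 1 gene, with its level in CPM on an axis that is linear up to 1 CPM and logarithmic above, for anterior and posterior libraries. Points are single libraries, lines join the 2 libraries of a mouse, colors give the strain and symbols the housing. All 16 lines of Bmp3 and of Bmp2 fall from anterior to posterior, and 14 of the 16 lines of Nog rise.

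Bmp2 (ENSMUSG00000027358, chr2:133552159-133562885, plus strand), a ligand of the canonical Smad branch, was also lower in the posterior portion in each of the 16 mice, at a far lower level. Anterior libraries of standard C57BL/6J mice 1 to 4 held 14.2, 50.9, 12.7 and 25.7 CPM, and posterior libraries held 5.62, 4.34, 3.55 and 3.62 CPM. In enriched C57BL/6J mice, anterior values were 9.82 CPM in mouse 1 and 13.9 CPM in mouse 3, and the 4 posterior values were 1.48, 5.68, 1.85 and 5.43 CPM. The highest posterior value of this strain (5.68 CPM) lay below its lowest anterior value.

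Standard B6D2F1N mice 1 to 5 held 15.6, 16.1, 6.07, 20.9 and 18.4 CPM of Bmp2 in anterior libraries, and 7.04, 1.74, 2.17, 3.97 and 8.61 CPM in posterior ones. Anterior values of enriched B6D2F1N mice 1, 2, 3, 4 and 6 were 6.79, 30.1, 4.53, 27.4 and 41.3 CPM. Posterior values of enriched B6D2F1N mice ranged from 0.879 CPM (mouse 4) to 16.9 CPM (mouse 2), with a median of 5.34 CPM. The ranges of the 2 portions overlapped in this strain. The posterior value of enriched mouse 2 lay above 5 of the 10 anterior values, of which those of standard mouse 3 and enriched mice 1 and 3 were the lowest.

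The log2 fold change of Bmp2 was -2.53 (SE 0.32, adjusted p = 0.0001) in C57BL/6J and -1.78 (SE 0.40, adjusted p = 0.012) in B6D2F1N. These are 5.78-fold and 3.45-fold lower levels in the posterior portion. Within a mouse, the anterior level was 1.22-fold to 31.2-fold the posterior level, with both extremes in B6D2F1N (enriched mice 3 and 4) and a median of 4.42-fold over the 16 mice. The difference of the log2 fold change between strains was 0.74 (95% interval -0.41 to 1.89) for Bmp2 and -0.22 (-0.85 to 0.41) for Bmp3, each with an adjusted p of 1 in edgeR's test of the portion by strain term. Between housing conditions the log2 fold change differed by -0.08 (-1.21 to 1.04) for Bmp2 and -0.22 (-0.83 to 0.39) for Bmp3.

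Without B6D2F1N standard mouse 1, the log2 fold change in this strain was -3.19 for Bmp3 and -1.86 for Bmp2. Without the 2 mice with the highest choroid plexus sums (enriched 1 and 3) it was -3.23 and -2.15, and without the 2 with the lowest anterior basolateral sums (standard 3 and enriched 1) it was -3.34 and -1.99. All of these were past the threshold.

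The other ligands did not pass the threshold in either strain. Bmp4 (chr14:46383520-46390669, minus strand), a close relative of Bmp2, was at 1.16 to 10.2 CPM in anterior and 0.256 to 14.2 CPM in posterior libraries. It was higher in the posterior portion in 11 of 16 mice, with log2 fold changes of 0.66 (95% interval -0.33 to 1.64) in C57BL/6J and 0.44 (-0.59 to 1.47) in B6D2F1N. Bmp7, which acts in neural and kidney development, was at 1.46 to 9.31 CPM in anterior and 1.11 to 10.7 CPM in posterior libraries. It was likewise higher in 11 of 16 mice, with log2 fold changes of 0.80 (-0.12 to 1.72) and 0.13 (-0.70 to 0.97).

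Bmp6, a regulator of iron balance in the liver, was at 0 to 4.93 CPM in anterior and 0 to 16.9 CPM in posterior libraries. It had no count in 3 of the 35 libraries although its median was 3.06 CPM in anterior and 3.25 CPM in posterior libraries, and it was higher in the posterior portion in 9 of 16 mice. The interval of its log2 fold change was wide, -2.71 to 1.85 in C57BL/6J and -1.10 to 2.05 in B6D2F1N. Bmp5, a ligand of skeletal development, was the lowest of the 10, at 0 to 3.12 CPM in anterior and 0 to 1.505 CPM in posterior libraries, with no count in 6 libraries. A gene with 0 counts at these depths may still have had an expected count of up to 3, and that limit covers counting error only. Bmp5 was lower in the posterior portion in 9 mice, higher in 6 and at 0 in both portions of 1, with intervals of -3.43 to 0.51 and -3.52 to 2.68.

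In posterior libraries, the 2 with the highest choroid plexus sums (B6D2F1N enriched mice 1 and 3) also held the 2 highest values of Bmp6 (6.62 and 16.9 CPM), of Bmp7 (9.99 and 10.7 CPM) and of Grem1 (3.71 and 5.81 CPM). Without these mice, the log2 fold changes in B6D2F1N were 0.00 for Bmp6, -0.05 for Bmp7 and 1.60 for Grem1. The part of choroid plexus RNA in these values was not tested.

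Among the antagonists, Nog (ENSMUSG00000048616, chr11:89300638-89302332, minus strand) came closest to the threshold, and was higher in the posterior portion in 14 of 16 mice. Anterior values of standard C57BL/6J mice 1 to 4 were 2.67, 6.34, 0.594 and 4.78 CPM, and posterior values were 3.55, 12.5, 5.92 and 2.79 CPM. Enriched C57BL/6J mice 1 and 3 held 2.83 and 4.36 CPM in anterior libraries, and mice 1 to 4 held 4.66, 3.88, 7.29 and 2.69 CPM in posterior ones. Within the 6 C57BL/6J mice, mouse 4 of the standard group alone was lower in the posterior portion.

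Standard B6D2F1N mice 1 to 5 held 3.84, 0.949, 3.45, 1.23 and 1.87 CPM of Nog in anterior libraries and 12.9, 2.88, 4.75, 6.92 and 5.27 CPM in posterior libraries. Anterior libraries of enriched B6D2F1N mice 1, 2, 3, 4 and 6 held 1.77, 2.76, 2.06, 3.39 and 4.04 CPM, and their posterior libraries, with that of mouse 5, held 3.12 to 9.00 CPM with a median of 6.13 CPM. Enriched mouse 6 alone was lower in the posterior portion in this strain, and the ranges overlapped. The log2 fold change was 0.84 (SE 0.48, adjusted p = 0.52) in C57BL/6J and 1.22 (SE 0.36, adjusted p = 0.064) in B6D2F1N by edgeR's test. In B6D2F1N the adjusted p was 0.00135 with DESeq2's likelihood ratio test, 0.0423 with edgeR's filterByExpr and 0.0409 without the mouse block, so that the call of Nog rested on the method. It was 0.149 without standard mouse 1, which had no Xist count, and 0.164 without the 2 mice with the highest choroid plexus sums.

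Chrd, which encodes chordin, was at 6.28 to 33.7 CPM in anterior and 8.37 to 37.0 CPM in posterior libraries. Its log2 fold changes were 0.39 (95% interval -0.12 to 0.90) in C57BL/6J and -0.24 (-0.78 to 0.30) in B6D2F1N. Bmper was at 1.07 to 35.7 CPM in anterior and 1.95 to 22.3 CPM in posterior libraries, with log2 fold changes of -0.46 (-1.08 to 0.17) and -0.21 (-0.97 to 0.56). Grem1, which encodes gremlin, was at 0 to 3.11 CPM in anterior and 0 to 5.81 CPM in posterior libraries and had no count in 3 libraries. Its log2 fold change was 0.04 (-1.33 to 1.399) in C57BL/6J and 2.35 (-0.30 to 5.00, adjusted p = 0.40) in B6D2F1N, where 7 of 10 mice were higher in the posterior portion. Of the 10 members, Bmp4, Bmp5, Bmp6 and Chrd overlap another gene on the opposite strand, and since the strand setting of the counting is not given in the sources used here, reads of such pairs could not be told apart.

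**Figure D2:**
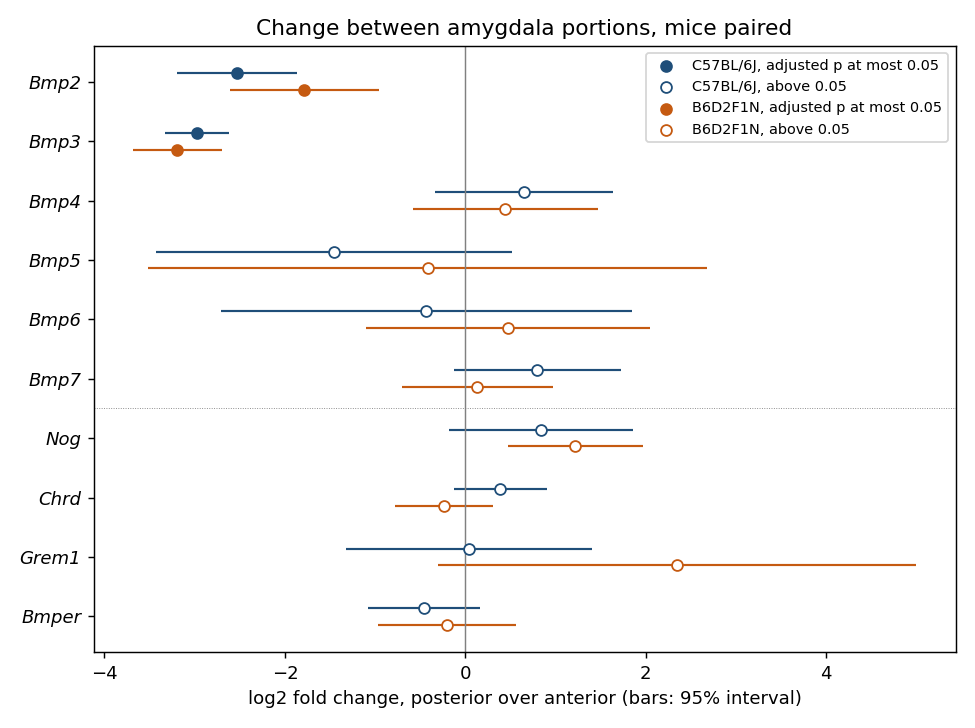
The horizontal axis gives the log2 fold change of each gene, posterior over anterior, and bars are 95% intervals of edgeR's fit with the mouse as a block, for 6 C57BL/6J and 10 B6D2F1N mice. Filled points have an adjusted p of at most 0.05, and the dotted line parts ligands from antagonists. Bmp3 (-2.98 and -3.19) and Bmp2 (-2.53 and -1.78) are filled, and Bmp5, Bmp6 and Grem1 have the widest intervals.

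On a scale of CPM per kilobase of exon, which allows levels of different genes to be set side by side, Bmp3 was the highest of the 10 in both portions. In anterior libraries it reached 97.0 ± 47.3 CPM per kb (SD, n = 16). Bmp2 followed at 5.53 ± 3.61, Chrd at 3.66 ± 1.30, Bmper at 2.94 ± 1.79, Bmp4 at 1.799 ± 1.04 and Nog at 1.73 ± 0.904 CPM per kb. The lowest levels were those of Bmp7 (1.17 ± 0.620), Bmp6 (0.686 ± 0.359), Grem1 (0.255 ± 0.235) and Bmp5 (0.194 ± 0.199 CPM per kb). Bmp3 and Bmp2 were the sole neighbors in this order whose means differed by more than their summed SDs.

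In posterior libraries, Bmp3 was at 10.7 ± 6.01 CPM per kb (SD, n = 19), followed by Chrd (3.72 ± 1.32), Nog (3.44 ± 1.76), Bmp4 (2.48 ± 1.39) and Bmper (2.28 ± 0.909). Bmp7 (1.52 ± 0.720), Bmp2 (1.38 ± 0.996), Bmp6 (0.951 ± 0.945), Grem1 (0.486 ± 0.338) and Bmp5 (0.140 ± 0.123 CPM per kb) came next. Bmp2 went from place 2 to place 7, and no neighbors in this order differed beyond their spread. Bmp3 made up 89.5 ± 5.5% of the summed level per kb of the 6 ligands in anterior libraries and 59.0 ± 16.8% in posterior libraries. The summed level of the 4 antagonists was 8.58 ± 2.64 CPM per kb in anterior and 9.92 ± 2.44 CPM per kb in posterior libraries, and that of Bmp4, Bmp5, Bmp6 and Bmp7 together was 3.85 ± 1.25 and 5.09 ± 2.02 CPM per kb.

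Markers of cell types moved with the portion too. Excitatory neuron markers were lower in posterior libraries, 3 of 5 in each strain, with Slc17a7, the vesicular glutamate transporter, at log2 fold changes of -1.22 in C57BL/6J and -1.32 in B6D2F1N. Of the 4 basolateral amygdala markers 3 were lower, and Rspo2, a secreted Wnt enhancer, changed by -2.59 and -3.63. Slc17a7 and Tbr1 are on both of these lists and are counted in each. Choroid plexus markers were higher, 4 of 6 in C57BL/6J and 6 of 6 in B6D2F1N, as were 2 and 4 of 5 ependymal markers. Of 7 meningeal fibroblast markers, Dcn rose in both strains. Of 6 inhibitory neuron markers, the neuropeptide gene Vip was lower in both strains (-0.96 and -0.87) and Pvalb, which encodes parvalbumin, in C57BL/6J (-1.42). Of 7 markers of striatal projection neurons, the dopamine receptor gene Drd1 was lower in C57BL/6J (-1.28) and the tachykinin gene Tac1 higher in B6D2F1N (1.17). Of 5 mural cell markers, Rgs5 was lower in B6D2F1N (-0.55). Astrocyte markers rose in 3 of 6 and 1 of 6 cases, and no marker of oligodendrocytes, their precursors, microglia or endothelial cells passed. No marker list had a gene at 0 in all libraries. The share of reads on no gene moved with the portion as well, from 14.0 to 22.8% in anterior (median 17.2%) to 13.7 to 26.4% in posterior libraries (median 21.5%), and was higher in the posterior library in 12 of 16 mice. In the other 4 mice, the anterior level was 5.00-fold to 25.5-fold the posterior level for Bmp3 and 2.54-fold to 9.26-fold for Bmp2. In bulk libraries, fewer cells of a type and less RNA per cell cannot be told apart, and the part of these differences in the values of Bmp3 and Bmp2 was not tested.

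Within the anterior portion, Bmp3 was higher in libraries with a higher sum of basolateral amygdala markers. Over the 16 anterior libraries Pearson's r was 0.836 (permutation p = 0.0002, adjusted p = 0.00144 over 12 relations) and Spearman's rho was 0.75 (p = 0.00102, adjusted p = 0.00612). Without the 2 libraries farthest from the median sum, r was 0.588 (permutation p = 0.0231). Within B6D2F1N r was 0.839 (n = 10, permutation p = 0.00314, adjusted p = 0.0126) and within C57BL/6J 0.782 (n = 6, exact permutation p = 0.0722, adjusted p = 0.124). Within B6D2F1N rho was 0.855 (permutation p = 0.0025, adjusted p = 0.01) and within C57BL/6J 0.6 (exact permutation p = 0.242, adjusted p = 0.322). Within B6D2F1N r was 0.531 (n = 8, exact permutation p = 0.153) without the 2 farthest libraries. Pearson's r there thus passed 0.05 only with those samples. Over the 19 posterior libraries r was 0.302 (permutation p = 0.208, adjusted p = 0.278) and rho was 0.498 (p = 0.0308, adjusted p = 0.08). Without the 2 farthest posterior libraries r was 0.582 (permutation p = 0.0151). Within C57BL/6J the posterior r was 0.453 (n = 8, exact permutation p = 0.26, adjusted p = 0.312), and 0.754 without the 2 farthest (n = 6, exact permutation p = 0.0861). Within B6D2F1N it was 0.154 (n = 11, permutation p = 0.659, adjusted p = 0.659), and 0.443 without them (n = 9, exact permutation p = 0.228). For Bmp2, r was 0.591 in anterior libraries (permutation p = 0.0175, adjusted p = 0.0419), with a rho of 0.503 (adjusted p = 0.0835). Pearson's r dropped to 0.336 (permutation p = 0.242) without the 2 farthest libraries, so that the pooled r passed 0.05 only with those samples. Within C57BL/6J r for Bmp2 was 0.804 (n = 6, exact permutation p = 0.025, adjusted p = 0.05) and rho 0.886 (exact permutation p = 0.0333, adjusted p = 0.08), and r was 0.884 over the 4 libraries left without the 2 farthest (exact permutation p = 0.25). Within B6D2F1N r was 0.57 (n = 10, permutation p = 0.105, adjusted p = 0.158), and 0.074 without the 2 farthest. These relations were chosen after the values were seen, and the measures of a library share its depth and scaling.

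**Figure D3:**
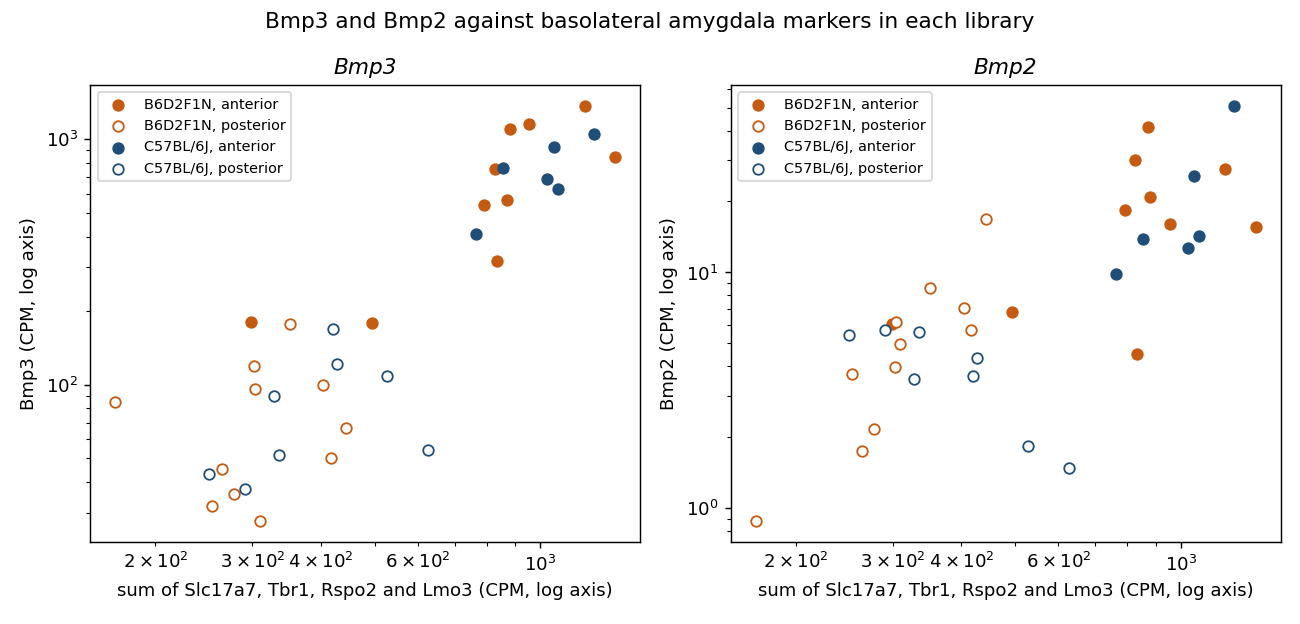
The horizontal axis gives the sum of 4 basolateral amygdala markers and the vertical axis the level of Bmp3 (left) or Bmp2 (right), in CPM on logarithmic axes. Each point is a library, filled for anterior and open for posterior, with colors for the strain. Anterior libraries have sums of 299 to 1367 CPM and Bmp3 levels of 178 to 1369 CPM, and posterior libraries sums of 169 to 626 CPM and Bmp3 levels of 27.6 to 176 CPM.

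The genes with profiles most like that of Bmp3 were Sstr2, Cdh9, Chgb, Sema3a and Epha7. Likeness was the root mean square difference between log2 CPM profiles, each centered on its own mean, over the 35 libraries, among 9828 genes with a mean of at least 10 CPM. It was 0.772 for the somatostatin receptor Sstr2, 0.814 for the cadherin Cdh9, 0.866 for the secretory granule protein Chgb, 0.873 for the guidance cue Sema3a and 0.912 for the ephrin receptor Epha7. Sstr2 was at 235 ± 96.8 CPM in anterior and 52.3 ± 26.2 CPM in posterior libraries. The difference for Bmp2 was 1.14, at rank 39. Of the other members, Bmper (1.84) and Chrd (1.88) were compared, at ranks 5342 and 6291, and the rest were below 10 CPM. The 2 portions separated these libraries, so that the measure takes in the portion difference itself. Likeness within a portion was not tested.

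Receptors, Smads, targets and other binding proteins of the pathway were examined as a list of 60 genes. In the portion comparison 4 of 51 tested passed in C57BL/6J (7.84%, beside 3.64% of all genes) and 5 of 54 in B6D2F1N (9.26%, beside 4.0% of all genes). The median log2 fold change of the list was 0.05 and 0.06, beside 0.01 and 0.15 over all genes. Among 13 receptors and co-receptors, Acvr2a, an activin and BMP type II receptor, rose from 79.8 ± 33.2 to 179 ± 56.6 CPM in C57BL/6J (SD, n = 6, log2 fold change 1.18, adjusted p = 0.0006 in edgeR's test). The co-receptor Tgfbr3 rose from 11.4 ± 4.22 to 31.1 ± 18.3 CPM in the same strain (1.38, adjusted p = 0.0031). Bmpr2, the main BMP type II receptor, fell from 335 ± 80.2 to 231 ± 35.4 CPM in B6D2F1N (SD, n = 10, log2 fold change -0.51, adjusted p = 0.013).

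Among the antagonists and binding proteins outside the 10 members, Sostdc1, a secreted BMP and Wnt inhibitor, rose from 18.9 ± 6.06 to 33.4 ± 8.32 CPM in C57BL/6J (log2 fold change 0.84, adjusted p = 0.027). Crim1, a membrane protein that binds BMPs, rose from 59.5 ± 14.2 to 98.2 ± 20.4 CPM in B6D2F1N (0.73, adjusted p = 0.0019). In edgeR's test Sostdc1 rose by 1.03 in B6D2F1N (adjusted p = 0.065) and Crim1 by 0.63 in C57BL/6J (adjusted p = 0.11), neither called. None of the 8 Smads and Smurfs passed in edgeR's test in either strain, with 1 at an unadjusted p under 0.05 in C57BL/6J and 3 in B6D2F1N, beside 3488 of all 25751 and 4312 of all 27761 genes. Among 6 target genes the homeobox gene Msx1 rose in B6D2F1N, from 1.30 ± 1.27 to 6.54 ± 5.82 CPM (adjusted p = 0.011), and no Id gene passed in either strain. Bmp15, a ligand of the ovary, was called higher in B6D2F1N (adjusted p = 0.033) at levels of 0.00523 ± 0.0165 and 0.859 ± 1.23 CPM, too low in anterior libraries for a fold.

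Strains were compared within each portion and housing, which asks what the genetic background changes. None of the 10 members passed the threshold in the 4 comparisons, by edgeR or by DESeq2. At an unadjusted p under 0.05 there were 2 members in standard posterior libraries, Chrd and Bmp7 (log2 fold change -1.02, 95% interval -2.03 to -0.02), and 0 in the other three. At that level there were 2605 of all 25171 genes in standard posterior, 2187 of 24305 in standard anterior, 1016 of 23459 in enriched anterior and 2336 of 25640 in enriched posterior libraries, so that over the 4 comparisons together the members' share was not above that of all genes. Over all genes, 0.37% passed in standard anterior, 0.373% in standard posterior, 0.0639% in enriched anterior and 0.394% in enriched posterior libraries.

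The log2 fold change of Bmp3, B6D2F1N over C57BL/6J, was -0.11 (95% interval -0.91 to 0.70) in standard anterior and 0.14 (-1.17 to 1.44) in enriched anterior libraries. It was -0.17 (-1.08 to 0.73) in standard posterior and 0.00 (-0.76 to 0.75) in enriched posterior libraries. The last value was -0.60 with only the mice that had both portions and 0.40 without C57BL/6J enriched mouse 3. With both housings in 1 fit it was -0.02 (-0.77 to 0.74) in anterior and -0.09 (-0.71 to 0.52) in posterior libraries, so that a difference of 2-fold either way lay outside these 2 intervals. For Bmp2 the same fits gave -0.17 (-1.13 to 0.80) and 0.49 (-0.41 to 1.39). Across both housings, 0.615% of all genes passed in anterior and 0.858% in posterior libraries, and again no member did. Tgfbr3 was the one pathway gene that did, at 33.8 ± 5.15 CPM in B6D2F1N and 11.4 ± 4.22 CPM in C57BL/6J anterior libraries (log2 fold change 1.54, adjusted p = 0.00011 in edgeR's test). In standard anterior libraries alone it was called as well (1.70, adjusted p = 0.0077).

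Chrd came closest to a strain difference among the members. Posterior libraries of standard C57BL/6J mice 1 to 4 held 35.4, 35.3, 15.6 and 29.2 CPM, and those of standard B6D2F1N mice 1 to 5 held 20.4, 13.7, 8.37, 13.7 and 13.7 CPM. The lowest C57BL/6J value lay below the highest B6D2F1N value. The log2 fold change was -1.04 (SE 0.29) with an adjusted p of 0.27 in edgeR's test, and 0.0603 in DESeq2. Without standard B6D2F1N mouse 1 it was -1.21 (adjusted p = 0.111). In enriched posterior libraries it was 0.08 (95% interval -0.41 to 0.56). The strain by housing term for Chrd was 1.12 (SE 0.37, adjusted p = 0.49) in posterior libraries and -0.42 (adjusted p = 1) in anterior libraries.

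Housing was compared within each strain and portion. None of the 10 members passed by edgeR or by DESeq2, and at an unadjusted p under 0.05 there were 3 over the 4 comparisons. These were Bmp2 in C57BL/6J anterior, Bmp3 in C57BL/6J posterior and Chrd in B6D2F1N posterior libraries. Over all genes 0.0% passed in C57BL/6J anterior, 0.0163% in C57BL/6J posterior, 0.0% in B6D2F1N anterior and 0.0% in B6D2F1N posterior libraries. At an unadjusted p under 0.05 there were 1418 of all 22865 genes, 2515 of 24526, 1553 of 24639 and 1716 of 26028 in the same order, a share close to that of the members. In the 3 comparisons with 0 genes called by edgeR, DESeq2 called 100, 8 and 13.

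Chrd in B6D2F1N posterior libraries was at 18.0 to 37.0 CPM with a median of 25.3 CPM in enriched mice, beside the 8.37 to 20.4 CPM given above for standard mice, and the ranges overlapped. The log2 fold change, enriched over standard, was 0.89 (SE 0.25, adjusted p = 0.75), and 1.05 without standard mouse 1. Bmp3 in posterior libraries differed by -0.84 (95% interval -1.61 to -0.07, adjusted p = 0.48) in C57BL/6J and by -0.68 (-1.52 to 0.16, adjusted p = 0.85) in B6D2F1N. With both strains in 1 fit its posterior difference was -0.75 (-1.36 to -0.14, adjusted p = 0.53). In anterior libraries the same fit gave -0.35 (-1.09 to 0.38). In C57BL/6J posterior libraries the value was -1.25 without enriched mouse 3, and -0.41 with only the mice that had both portions. Bmp2 in C57BL/6J anterior libraries differed by -1.14 (-2.24 to -0.04, adjusted p = 0.79). This value was -0.59 without standard mouse 2, whose library held 50.9 CPM.

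No member passed in the other fits either, by edgeR or DESeq2, and all had 0.0% of genes called by edgeR. They were the portion by strain and portion by housing terms, the strain by housing terms of each portion, and housing over both strains. Genes at an unadjusted p under 0.05 numbered 871 and 888 of 29437 for the 2 portion terms. For strain by housing they numbered 1576 of 26353 in anterior and 2335 of 27871 in posterior libraries. For housing they numbered 1665 and 2371 of the same totals. DESeq2 called 0, 1, 3, 15, 70 and 2 genes in the same order. Among the members, Chrd in the strain by housing term and Bmp3 in housing, both in posterior libraries, had an unadjusted p under 0.05. The Chrd values for strain in standard mice, housing in B6D2F1N and this term shared the standard B6D2F1N posterior libraries. They were not separate observations.

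**Figure D4:**
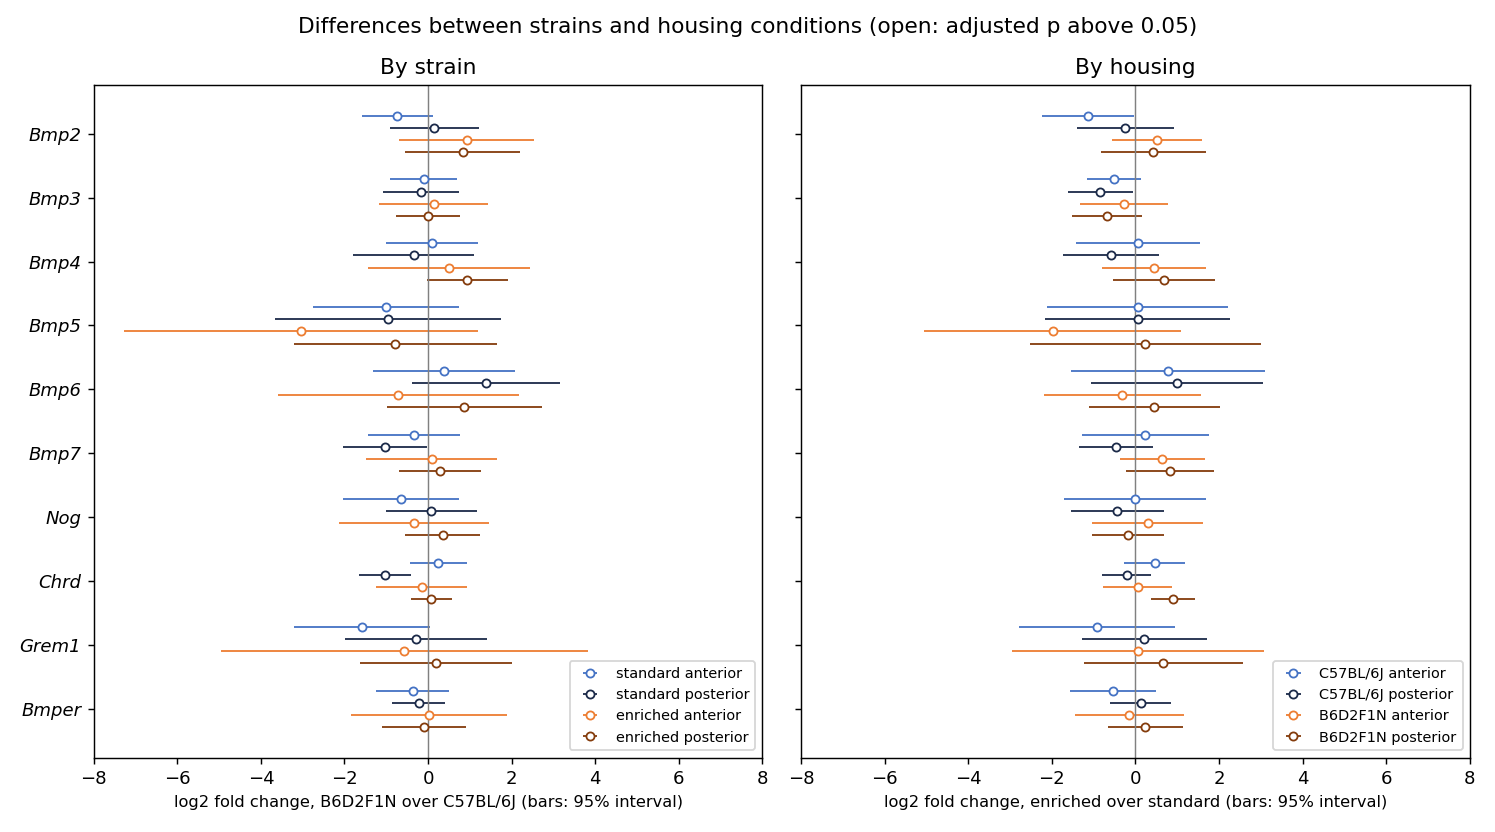
The horizontal axes give the log2 fold change of each gene between strains (left, B6D2F1N over C57BL/6J) and between housing conditions (right, enriched over standard), with 95% intervals of edgeR's fit as bars and a color for each comparison. All points are open, since no adjusted p was at most 0.05. The intervals of Bmp3 and Chrd are among the narrowest, and those of Bmp5 and Grem1 the widest.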

How the data were processed

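RNA of laser-captured basolateral amygdala cells was sequenced by the authors from low-input libraries as single reads of 72 bases. Per the labels and the submitters' processing notes, the tools used by the authors were Trimmomatic 0.38 for trimming, HISAT2 2.1.0 for alignment to GRCm38, SAMtools 1.8 for sorting and HTSeq 0.11.2 for counting. The deposited values are read counts per Ensembl gene, neither normalized nor filtered. The strand setting and annotation release of the counting are not given in the sources used here. HTSeq tallies of unassigned reads were left out, among them 13.7 to 26.4% of reads on no gene.

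Symbols, positions and exon lengths came from GENCODE M21 (GRCm38), which held 52489 of the 52636 gene identifiers. Genes whose counts summed to 10 or more across the libraries fitted were tested with the quasi-likelihood F test of edgeR 4.0.16 (R 4.3.3) after TMM scaling. Benjamini-Hochberg adjustment covered all genes tested, and a call needed an adjusted p of at most 0.05. CPM values carry TMM scaling over all 35 libraries, and log2 CPM profiles a prior count of 2. Portions were compared within strain and paired by mouse (a block in the fit), the design the study used too. Pairs come from the same animal by the labels. Across 16022 genes, a mouse's anterior and posterior deviations from group means had a median r of 0.048 (-0.105 to 0.222, 16 mice). No 2 libraries held identical counts. Permutation p-values used up to 100000 permutations and were two-sided.

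The members, lists and comparisons were chosen with earlier results of these data known. All 10 members were named, with up to 4 genes called per pathway list and comparison, the 5 profiles closest to Bmp3, and markers that moved with a result. Alternatives were DESeq2 1.42.0, the tool of the study, its size factors in edgeR, filterByExpr, no minimum count, robust empirical Bayes, no block, other sets of libraries and each mouse left out. A fit of both strains and 2 fits without mice that stood apart were added after the data were seen. The tests were checked on simulated counts. One item among the genes called in the pathway lists is counted but not reported here. Promoter and protein sequences of the members with called differences were not used here.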

Additional observations from a re-analysis of the deposited data

Results flagged for a closer look

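Of 70 groups of values, each 1 gene in 4 to 6 libraries, tested for a single distant value, 5 held one, and chance alone gives one in about 1 in 20 groups. Bmp2 in B6D2F1N enriched posterior libraries was at 16.86 CPM in mouse 2 and at 0.879 to 6.17 CPM in the other 5 mice. In the same group Bmp4 was at 14.21 CPM in mouse 4 and at 5.35 to 6.99 CPM in the others. Bmp6 was at 0.0 CPM in C57BL/6J standard anterior mouse 2 and at 2.74 to 3.06 CPM in the other 3 mice. That library also held the distant value of Bmper, 35.69 CPM, beside 10.8 to 13.7 CPM in the others. Grem1 was at 3.105 CPM in B6D2F1N enriched anterior mouse 4 and at 0 to 0.354 CPM in the other 4 mice.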

How the results depend on the processing

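Bmp3 and Bmp2 kept their direction and their call in both strains under every alternative run and without each mouse in turn. Without 1 mouse, the log2 fold change of Bmp3 ranged from -3.08 to -2.84 in C57BL/6J and from -3.36 to -3.02 in B6D2F1N, and that of Bmp2 from -2.76 to -2.32 and from -1.94 to -1.50. Without the replicate block, that is with the pairing by mouse ignored, Bmp3 was at -2.91 and -3.25 and Bmp2 at -2.63 and -1.75. Nog was the sole member that gained a call. In B6D2F1N it was called with DESeq2, with filterByExpr, without the block and without enriched mouse 6 (adjusted p = 0.0348), and for both strains with both in 1 fit (1.09, adjusted p = 0.0135). In B6D2F1N it had adjusted p-values of 0.00135 to 0.164 over its alternatives. No value that was called changed its sign. Of 3008 alternative values of the members, 2970 kept their side of the threshold and stayed within 1 SE where not called, 32 moved by more and 6 were the calls of Nog. Per kilobase of the longest transcript, Chrd was at 5.19 in anterior and 5.28 CPM per kb in posterior libraries.

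Counts over all genes moved more. In the portion comparison 937 genes were called in C57BL/6J and 1110 in B6D2F1N, beside 1535 and 1994 with DESeq2 and 2532 with both strains in 1 fit. Without C57BL/6J standard mouse 4 or 1 there were 602 and 606, and without the 2 B6D2F1N mice with the highest choroid plexus sums 631. Strain comparisons called 15 to 101 genes, beside 137 to 392 with DESeq2, and housing comparisons 0 to 4, beside 8 to 319. Strain over both housings called 162 genes in anterior and 239 in posterior libraries, beside 358 and 532. Without a minimum count, housing in C57BL/6J anterior libraries called 274 genes. With only mice that had both portions, strain in enriched posterior libraries called 35. Without 1 mouse, counts ranged from 59 to 166 over the strain comparisons in standard anterior, standard posterior and enriched posterior libraries. They ranged from 0 to 172 over the housing comparisons other than that of C57BL/6J anterior libraries. Strain in enriched anterior and housing in C57BL/6J anterior libraries are not in these ranges. There, leaving out a C57BL/6J enriched mouse leaves 1 library in its group. Leaving out each mouse was not run for the 2 portion interaction terms. Bmp5, Bmp6 and Grem1 had libraries without a count, and the part of depth in this was not tested. Bmp6 had 0 counts in a C57BL/6J anterior library of 21977583 reads with 19961 genes detected, and 53 in one of 18524769 reads with 22552 genes detected. Its other libraries at 0 had 20522 and 23469 genes detected, and the libraries at 0 for Grem1 had 18580, 18959 and 21660. Over all libraries this number was 18580 to 25531, and its part in the missing counts was not tested.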

Other observations

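Bmp2 in posterior libraries went opposite ways with the basolateral amygdala marker sum in the 2 strains. Pearson's r was -0.893 in C57BL/6J (n = 8, exact permutation p = 0.00531, adjusted p = 0.0159 over 12 relations) and 0.891 in B6D2F1N (n = 11, permutation p = 0.00024, adjusted p = 0.00144). Spearman's rho was -0.738 (exact permutation p = 0.0458, adjusted p = 0.0835) and 0.891 (permutation p = 0.0006, adjusted p = 0.00612). Without the 2 libraries farthest from the median sum, r was -0.821 over 6 libraries (exact permutation p = 0.075) and 0.718 over 9 (exact permutation p = 0.0195). Both housings were pooled in these values. In C57BL/6J, enriched mice 1 and 3 had sums of 626 and 528 CPM with Bmp2 at 1.48 and 1.85 CPM. Enriched mice 2 and 4 had sums of 291 and 250 CPM with Bmp2 at 5.68 and 5.43 CPM. Standard mice lay between, at sums of 328 to 427 CPM with Bmp2 at 3.55 to 5.62 CPM. The difference between the strains was not tested, and over all 19 posterior libraries r was 0.214. These relations were chosen after the values were seen.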
